A study of Mus musculus with 6 samples.

Results

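NANOG binding was compared between Esrrb-GFP medium and Esrrb-GFP negative ESCs, the fraction with a low level of the *Esrrb* reporter and the fraction with none, by the genomic regions listed as bound in each. A fraction was counted as binding a region when exactly that chromosome, start and end stood in its list. The NANOG list held 4729 regions in Esrrb-GFP medium cells and 286 in Esrrb-GFP negative cells, together 4833 of the 23767 different regions in the 6 lists of the series. The share of all 23767 regions with NANOG was 19.9% in medium and 1.20% in negative cells.

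All cells were E-GFPd1 ESCs, a line of the E14Tg2a Esrrb-2a-GFPd-IBIH type in which destabilised GFP was targeted to both *Esrrb* alleles, so that GFP reports transcription of *Esrrb*. They were cultured in LIF and FCS, fixed, and sorted among SSEA1-positive cells into 3 fractions by GFP, which are Esrrb-GFP negative, medium (the 15% directly above negative) and high (the brightest 10%). One label field calls the negative fraction Esrrb-low, whereas the sorted fraction is given as negative. ChIP-Seq used an in-house rabbit antibody for NANOG and a goat antibody for OCT4, with 1 library for each factor and fraction, made from 3 pooled ChIPs. There are therefore no replicate libraries, and no test between fractions was made. The lists carry neither scores nor read numbers, so the depth of each library is unknown. Intervals are 95% Wilson intervals for shares and Newcombe intervals for differences of shares, and they cover counting over regions only.

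NANOG is a homeodomain transcription factor that sustains self-renewal of mouse ESCs, and *Esrrb*, which encodes an orphan nuclear receptor, is one of its direct targets. OCT4, the POU factor encoded by *Pou5f1*, is present in naive and in primed pluripotent cells and often binds beside SOX2 at a composite Oct-Sox element. NANOG, OCT4, SOX2, ESRRB and KLF factors share many enhancers in ESCs, and NANOG varies in level between cells of the same culture.

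Of the NANOG regions of medium cells, 182 were also listed in negative cells, 3.85% (95% interval 3.34 to 4.44), and are called kept. The other 4547 were lost, 96.2%. Kept and lost refer to the listing alone. In the paper, average NANOG signal was reduced in negative cells even at regions still called there. A further 104 regions were listed in negative but not in medium cells, 36.4% of the 286 NANOG regions of negative cells, and are called negative-only. For OCT4, 44.1% of the 14464 regions of medium cells were absent from the negative list, and 8079 were kept, 55.9% (55.0 to 56.7).

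**Figure D1:**
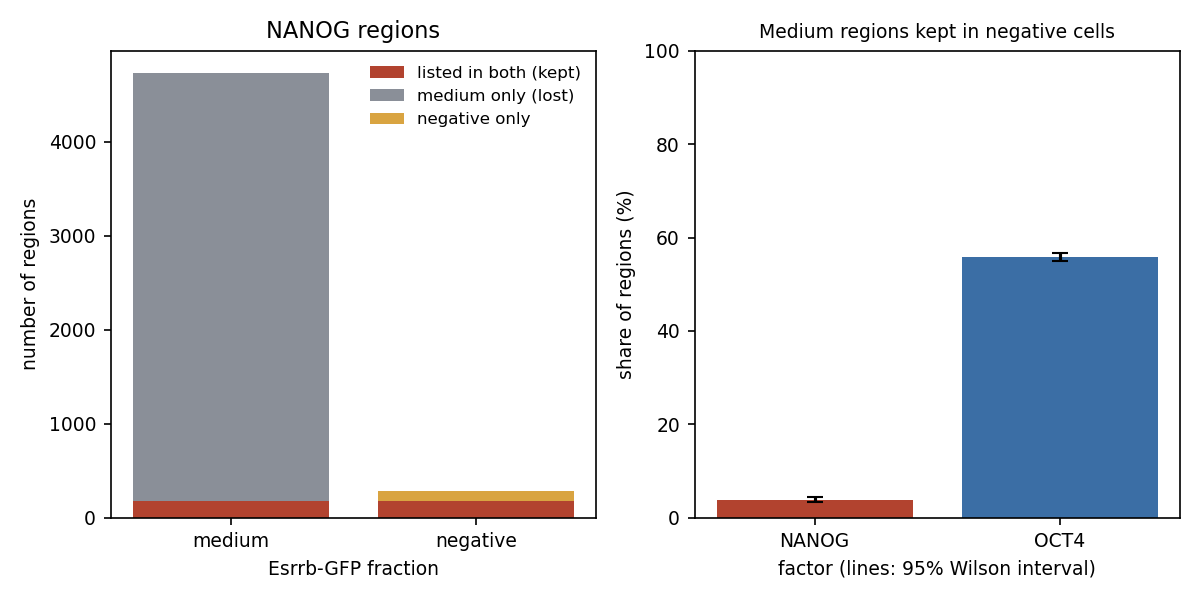
Left, number of NANOG regions in Esrrb-GFP medium and negative cells, split into regions listed in both (182), in medium only (4547) and in negative only (104). Right, share of the regions of medium cells that were also listed in negative cells for NANOG (3.85%) and OCT4 (55.9%), with 95% Wilson intervals.

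Lost regions at 4 genes of the naive network are shown first, because NANOG was listed there in medium and not in negative cells. Sequences are the plus strand of mm9 (NCBIM37), positions are counted from 1, and capitals mark matches to the motifs searched below. For regions wider than 300 bp the central 300 bases are given. The *Esrrb* stretch (chr12:87842642-87842941) lies in an intron of *Esrrb*, the *Nanog* stretch (chr6:122652572-122652871) upstream of *Nanog*, and the regions at *Tet2* (chr3:133181692-133181891), which encodes a 5-methylcytosine dioxygenase, and *Tcfcp2l1* (chr1:120538992-120539131), a naive transcription factor gene, in introns. The capitals at *Esrrb* and *Tcfcp2l1* are matches to the ESRRB motif on the minus strand.
Esrrb, lost: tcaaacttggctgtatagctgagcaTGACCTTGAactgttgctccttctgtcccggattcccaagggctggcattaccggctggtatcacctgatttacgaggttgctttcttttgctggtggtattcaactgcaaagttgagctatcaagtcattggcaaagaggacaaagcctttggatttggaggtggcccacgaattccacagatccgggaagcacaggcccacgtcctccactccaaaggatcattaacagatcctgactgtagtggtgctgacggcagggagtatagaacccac
Nanog, lost: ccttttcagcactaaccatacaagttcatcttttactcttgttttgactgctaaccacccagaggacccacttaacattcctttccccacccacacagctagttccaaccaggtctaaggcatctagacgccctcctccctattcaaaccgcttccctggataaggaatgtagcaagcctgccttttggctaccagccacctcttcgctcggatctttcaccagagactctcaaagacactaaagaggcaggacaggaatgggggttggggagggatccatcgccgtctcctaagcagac
Tet2, lost: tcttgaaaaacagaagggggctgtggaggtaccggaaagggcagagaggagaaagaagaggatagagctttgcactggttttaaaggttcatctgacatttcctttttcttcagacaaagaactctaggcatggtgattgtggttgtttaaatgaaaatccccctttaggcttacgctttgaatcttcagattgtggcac
Tcfcp2l1, lost: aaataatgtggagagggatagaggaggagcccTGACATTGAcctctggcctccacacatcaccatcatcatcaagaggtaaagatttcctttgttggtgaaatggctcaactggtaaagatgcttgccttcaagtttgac

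Kept regions are shown next, those at 4 of the 5 list genes that had one and the first of 3 at *Ptprg*, followed by the 2 widest kept regions with OCT4 in every fraction, a central sequence at a single place in the genome and an Oct-Sox match. *Fgf5*, a growth factor gene of the formative state, holds the region in an intron (chr5:98684822-98685121), *Sall1*, a spalt zinc finger gene, upstream (chr8:91569312-91569351), and *Zscan10*, a zinc finger gene of pluripotent cells, in an intron (chr17:23738452-23738491). The regions at *Dnmt3a*, a de novo DNA methyltransferase gene (chr12:3885112-3885151), and *Ptprg*, a receptor tyrosine phosphatase gene (chr14:12503472-12503671), are intronic. The last 2 sequences are windows of 201 bp around the region's centre, intergenic with *Mreg* (chr1:72275572-72275772) and *Hspe1* (chr1:55165512-55165712) as closest genes. Capitals at *Mreg* and *Hspe1* mark a minus-strand Oct-Sox match and a KLF match.
Fgf5, kept: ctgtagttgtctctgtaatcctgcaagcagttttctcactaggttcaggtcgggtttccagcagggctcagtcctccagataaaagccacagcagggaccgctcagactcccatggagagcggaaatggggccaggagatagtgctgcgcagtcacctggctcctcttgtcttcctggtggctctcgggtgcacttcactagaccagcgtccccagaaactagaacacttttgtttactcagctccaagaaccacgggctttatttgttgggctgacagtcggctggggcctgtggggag
Sall1, kept: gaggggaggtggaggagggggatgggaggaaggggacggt
Zscan10, kept: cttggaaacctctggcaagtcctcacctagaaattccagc
Dnmt3a, kept: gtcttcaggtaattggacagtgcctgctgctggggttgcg
Ptprg, kept: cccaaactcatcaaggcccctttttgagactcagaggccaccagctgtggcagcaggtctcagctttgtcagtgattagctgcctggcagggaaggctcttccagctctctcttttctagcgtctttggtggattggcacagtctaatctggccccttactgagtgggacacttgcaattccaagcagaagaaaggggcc
Mreg, kept: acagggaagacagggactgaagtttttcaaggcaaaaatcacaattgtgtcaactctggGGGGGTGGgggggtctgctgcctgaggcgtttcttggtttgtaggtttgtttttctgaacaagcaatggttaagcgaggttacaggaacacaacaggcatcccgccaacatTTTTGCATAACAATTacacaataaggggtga
Hspe1, kept: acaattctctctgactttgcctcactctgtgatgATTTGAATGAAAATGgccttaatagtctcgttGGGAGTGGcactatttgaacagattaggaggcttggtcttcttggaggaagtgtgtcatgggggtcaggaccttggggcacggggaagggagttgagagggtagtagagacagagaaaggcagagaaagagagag

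Negative-only regions are shown for *Nanog* and *Sox2*, and for *Pgk1*, the gene of the widest of them. The *Nanog* stretch (chr6:122657472-122657771) spans the start site, the *Sox2* region (chr3:34549332-34549371) lies in an exon, and the *Pgk1* sequences come from its promoter (chrX:103382162-103382461) and from its 3′ end (chrX:103399032-103399211). The capitals at *Nanog* and at the 3′ end of *Pgk1* are KLF matches, which overlap each other at *Pgk1*.
Nanog, negative-only: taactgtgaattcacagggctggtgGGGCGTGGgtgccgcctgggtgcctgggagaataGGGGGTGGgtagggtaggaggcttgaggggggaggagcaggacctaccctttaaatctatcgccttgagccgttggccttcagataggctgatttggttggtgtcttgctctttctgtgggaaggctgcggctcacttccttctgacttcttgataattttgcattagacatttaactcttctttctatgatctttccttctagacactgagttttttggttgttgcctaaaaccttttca
Sox2, negative-only: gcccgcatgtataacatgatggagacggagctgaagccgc
Pgk1 promoter, negative-only: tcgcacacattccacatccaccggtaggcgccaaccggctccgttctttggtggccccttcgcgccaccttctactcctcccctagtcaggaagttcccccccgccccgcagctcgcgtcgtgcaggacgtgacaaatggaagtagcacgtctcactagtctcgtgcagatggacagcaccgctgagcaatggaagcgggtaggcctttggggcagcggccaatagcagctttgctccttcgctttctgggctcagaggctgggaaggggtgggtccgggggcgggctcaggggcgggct
Pgk1 3′ end, negative-only: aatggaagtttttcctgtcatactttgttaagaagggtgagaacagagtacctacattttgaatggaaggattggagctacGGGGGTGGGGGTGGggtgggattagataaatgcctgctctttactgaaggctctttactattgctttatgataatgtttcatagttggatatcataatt

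At *Esrrb* all 6 NANOG regions of medium cells within 20 kb of the gene were lost. They lie between 105245 and 143375 bp downstream of the outermost annotated start site, from which distances at named genes are counted unless another is given, and between 83 and 8975 bp from the closest annotated *Esrrb* start site. All 6 were also listed in Esrrb-GFP high cells. OCT4 was listed in medium cells at 4 of them and in negative cells at 1, 137895 bp from the outermost start site. The amplicon of the *Esrrb* enhancer primer pair used for ChIP-PCR in the study lay inside the 520 bp region (chr12:87842532-87843051), which was listed for both factors in high and medium cells and for neither in negative cells.

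At *Nanog* the list changed place. The region 4785 bp upstream of the start site (chr6:122652512-122652931) had NANOG in high and medium cells and none in negative cells. The region at the start site (chr6:122657412-122657831, 420 bp) was listed for NANOG in negative cells alone, whereas OCT4 was listed there in all 3 fractions. The amplicon of the *Nanog* enhancer primer pair lay inside the first of these regions, and that of the promoter pair overlapped the second. A region was removed by the authors from a population that retained less than 50% of its highest signal, so a region absent from the high and medium lists can still have carried signal there.

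The other genes of the core network differed in what they retained. *Pou5f1* had 2 NANOG regions in medium cells, 1960 and 920 bp upstream, and both were lost while OCT4 stayed listed at both in negative cells. *Sox2* had 3 NANOG regions in medium cells and lost all of them. Its only NANOG region in negative cells was a 40 bp interval in the exon, 425 bp past the start site, where no other library had a region. *Tet2* lost all 3 of its NANOG regions and *Tcfcp2l1* its only one. *Klf4*, a naive Krüppel-like factor gene, and *Otx2*, a homeobox gene of the formative state, had no NANOG region in medium or negative cells within 20 kb.

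Only 8 of 135 annotated genes in 10 lists for pluripotency, signalling and chromatin had a NANOG region in negative cells within 20 kb of the gene body, against 67 in medium cells. For all 37310 annotated genes these shares were 0.882% and 12.3%. Of the genes with a NANOG region in medium cells, 60 of the 67 list genes had none in negative cells, 89.6%, and 94.4% of all 4573 such genes. OCT4 regions were near 104 of the 135 genes in medium and near 86 in negative cells, and near 30.7% and 24.2% of all annotated genes.

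The NANOG regions of negative cells at list genes were few and ranged in width from 40 bp to 420 bp. *Fgf5* kept a 360 bp region 1769 bp past its start site, listed in all 6 libraries. *Sall1* kept a 40 bp region 1271 bp upstream and lost another 28279 bp from its start site. *Zscan10* kept a 40 bp region and lost an 80 bp region beside it, where OCT4 remained listed. *Dnmt3a* kept its only NANOG region of medium cells, 40 bp wide and 317 bp from the start site of a shorter transcript. *Egr1*, an immediate early gene of the ERK pathway, kept a 180 bp exonic region that was not listed in high cells, and lost a second. *Ctnnb1*, which encodes β-catenin, had no NANOG region in medium cells and a negative-only region that was also listed in high cells. *Nanog* and *Sox2* complete the 8 genes, and 5 of the 8 had a kept region.

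By list, 11 of 20 naive factor genes had a NANOG region in medium cells and 1 (*Nanog*) in negative cells. Among 12 core and shared pluripotency genes the counts were 10 and 3, and among 14 formative and primed genes 6 and 1. The DNA methylation enzymes had 5 and 1 of 9 genes, with *Tet1* 1, *Tet2* 3, *Tet3* 2, *Dnmt3b* 3 and *Dnmt3a* 1 NANOG regions in medium cells, of which the *Dnmt3a* region alone was kept. In the LIF and STAT3 list 6 of 12 genes were near a NANOG region in medium cells and none in negative cells. There *Socs3*, the feedback inhibitor of STAT3, and *Myc* each went from 3 regions to 0, and *Lifr*, the LIF receptor gene, from 2 to 0. The Nodal and BMP list (7 of 15 genes in medium cells), the Polycomb and histone demethylase list (8 of 12) and the lineage transcription factor list (4 of 16) likewise had no gene near a NANOG region of negative cells. Of all annotated genes near a NANOG region of medium cells, 94.4% had none in negative cells, so lists this small do not stand out by having none. *Lefty1* and *Lefty2*, which encode inhibitors of Nodal, lost 2 regions each, and *Jarid2*, a cofactor of Polycomb repressive complex 2, lost 4. The FGF and ERK list went from 6 to 1 of 14 genes and the Wnt list from 4 to 1 of 11. *Etv5*, an ERK-responsive ETS factor gene, lost 4 regions. *Fgfr2* lost 6, but its gene model in the annotation spans 3009 kb.

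**Figure D2:**
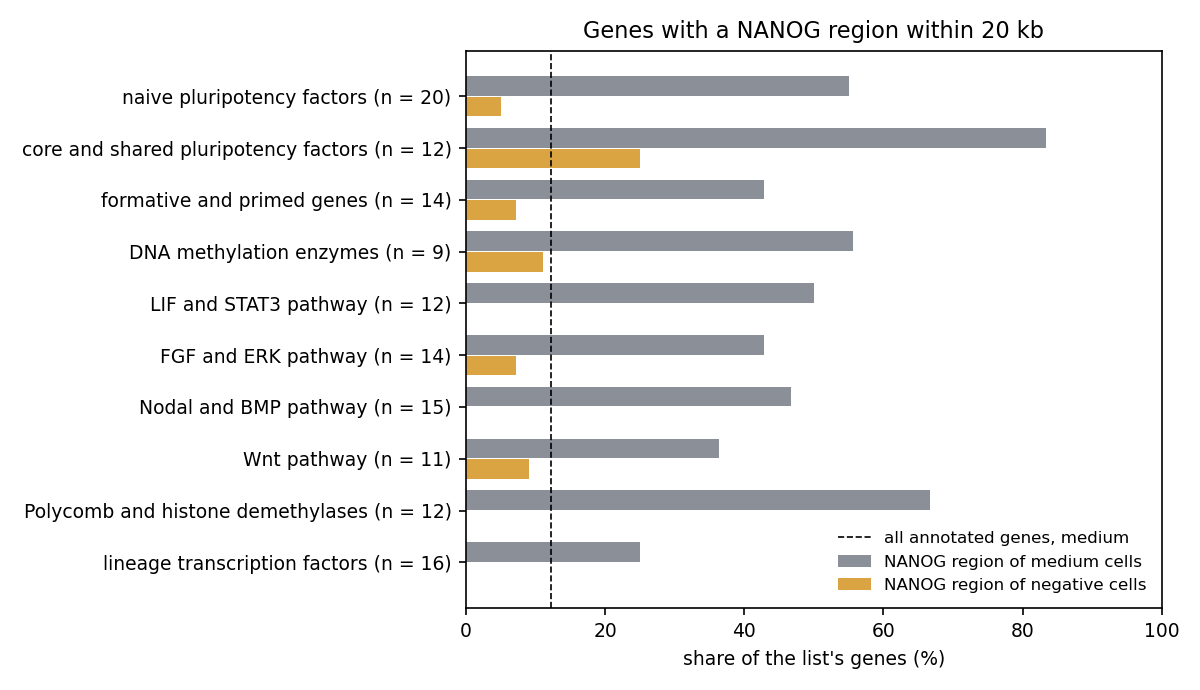
Share of the genes of each list (number annotated in brackets) with a NANOG region of Esrrb-GFP medium cells (grey) or negative cells (yellow) within 20 kb of the gene body. In all 10 lists the share in medium cells lies above the 12.3% of all annotated genes (dashed line), and 4 lists have no gene with a region in negative cells. For protein-coding genes the share in medium cells was 14.6%. The lists were chosen with earlier results of these data known, so their height above the line is not independent evidence.

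The protein-coding genes with most NANOG regions in medium cells were long. *Arhgap26*, a GTPase activating protein gene of 775 kb, had 8 regions in medium and 0 in negative cells, and *Etl4* (901 kb) went from 7 to 0. *Ptprg* (689 kb) stood apart among these 10 genes, with 7 regions in medium cells, 3 of them kept, and 1 more region in negative cells that was negative-only. Its kept regions lie in introns, 117526, 119786 and 554136 bp past the start site. *Odz4*, which encodes a teneurin, went from 6 to 1 and *2900011O08Rik* from 5 to 1, while *Esrrb*, *Fgfr2*, *Epha4* (an ephrin receptor gene), *5730522E02Rik* and *Ptprn2* went from 5 or 6 to 0.

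At the start sites of protein-coding genes, 21 of the 286 NANOG regions of negative cells had their centre within 1 kb, 15 of them kept and 6 negative-only. The kept ones were at *Os9* (endoplasmic reticulum quality control), *Olfr328* (an olfactory receptor), *Dnmt3a*, *2010111I01Rik*, *Zscan10*, *Phf21a* (a histone reader), *Tspan18* (a tetraspanin), *Shc4* (a signalling adaptor), *Hax1*, *Car14* (a carbonic anhydrase), *Psrc1*, *Tox* (an HMG-box factor), *Zp3* (an egg coat glycoprotein), *Slc35f2* (a solute carrier) and *Mras* (a Ras-family GTPase). The negative-only ones were at *Tomm34*, *Sox2*, *Nanog*, *Ctnnb1*, *Mcts1* and *Pgk1*. The *Ctnnb1* region lies in an exon, 26228 bp past the outermost start site and 13 bp from another annotated start site. OCT4 was listed in negative cells at 5 of the 21, and at 16 no fraction had OCT4. Over all 286 NANOG regions of negative cells these shares were 30.4% and 61.9%. Of the 21 regions, 9 were 40 bp wide. The share within 1 kb of such a start site was 7.34% of the regions of negative cells. It was 4.57% of the NANOG regions of medium cells and 8.80% of the OCT4 regions of medium cells without NANOG.

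The widest negative-only region was the promoter of *Pgk1*, which encodes a glycolytic kinase (chrX:103382072-103382551, 480 bp, centre 127 bp upstream of the start site). No other library had a region there. A second *Pgk1* region of 180 bp, with its centre 84 bp past the end of the gene, was likewise listed for NANOG in negative cells alone. It was singled out after its values were seen. Whether the reads at these regions came from the chromosomal gene was not tested. The next widest were the *Nanog* start site, a region of 300 bp closest to *Hspa8*, a chaperone gene (chr9:40614752-40615051), and 2 regions of 260 bp, closest to *Speer4c* (chr5:15197832-15198091) and *Gm17467* (chrX:120773692-120773951). These last 3 were also listed for NANOG in high cells.

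Kept regions were found at the highest share on chromosome 8 and at the lowest on chromosome 10, among the autosomes and chromosome X. On chromosome 8, 20 of 274 NANOG regions of medium cells were kept, 7.30% (4.77 to 11.0), and on chromosome 10, 4 of 262, 1.53% (0.595 to 3.86), an interval that reaches the 3.85% of all medium regions. The densest stretch, chr8:19918332-20033051, spanned 115 kb near *Gm15319* and held 9 of the 286 NANOG regions of negative cells, 8 of them kept, and without it the share kept on chromosome 8 was 12 of 266, 4.51% (2.60 to 7.72). It included the 4 widest kept regions, of 740, 540, 480 and 480 bp. The central 31 bases of each of the 9 regions occur at between 2 and 979 places in mm9. How reads that match several places were treated is not given in the sources used here. Without this stretch 3.69% (3.18 to 4.26) of all medium regions were kept. The widest kept regions elsewhere were those of *Fgf5* and an intronic region closest among protein-coding genes to *Myc* (chr15:61924252-61924611), each 360 bp wide, at a single place in the genome and listed in all 6 libraries.

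Copies in the genome moved with retention over the whole list. The central 31 bases occurred at more than 1 place for 42 of 182 kept regions, 23.1% (17.6 to 29.7), against 351 of 4547 lost regions, 7.72% (6.98 to 8.53), a difference of 15.4 percentage points (9.77 to 22.0). Of the medium regions at 2 to 10 places 13.4% were kept (9.54 to 18.5), of those at over 10 places 7.10% (4.11 to 12.0), and of those at 1 place 3.23% (2.74 to 3.798). A tandem repeat of at least 20 bp lay within 100 bp of the centre in 7.69% of kept and 1.58% of lost regions. The part of these sequences in retention was not tested.

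Kept regions were narrower than lost ones, with medians of 80 bp (interquartile range 60 to 160 bp) and 120 bp (60 to 200 bp), and negative-only regions were narrower still, 60 bp (40 to 105 bp). The share kept was 5.66% (4.04 to 7.89) among regions of 40 bp and 2.30% (1.56 to 3.37) among those of 220 bp or more. Widths are those of peaks merged over all libraries, so they grow when a region was called in more libraries. GC content around the centre had a median of 49.3% in kept, 46.8% in lost and 47.8% in negative-only regions. Of kept regions 39.6% and of lost regions 40.1% were intronic, a difference of -0.510 points (-7.48 to 6.88). Kept regions were within 1 kb of a transcription start site in 9.89% (6.35 to 15.1) and lost ones in 5.96% (5.31 to 6.69), a difference of 3.93 points (0.314 to 9.17) that was 1.19 (-4.53 to 7.98) within 5 kb.

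**Figure D3:**
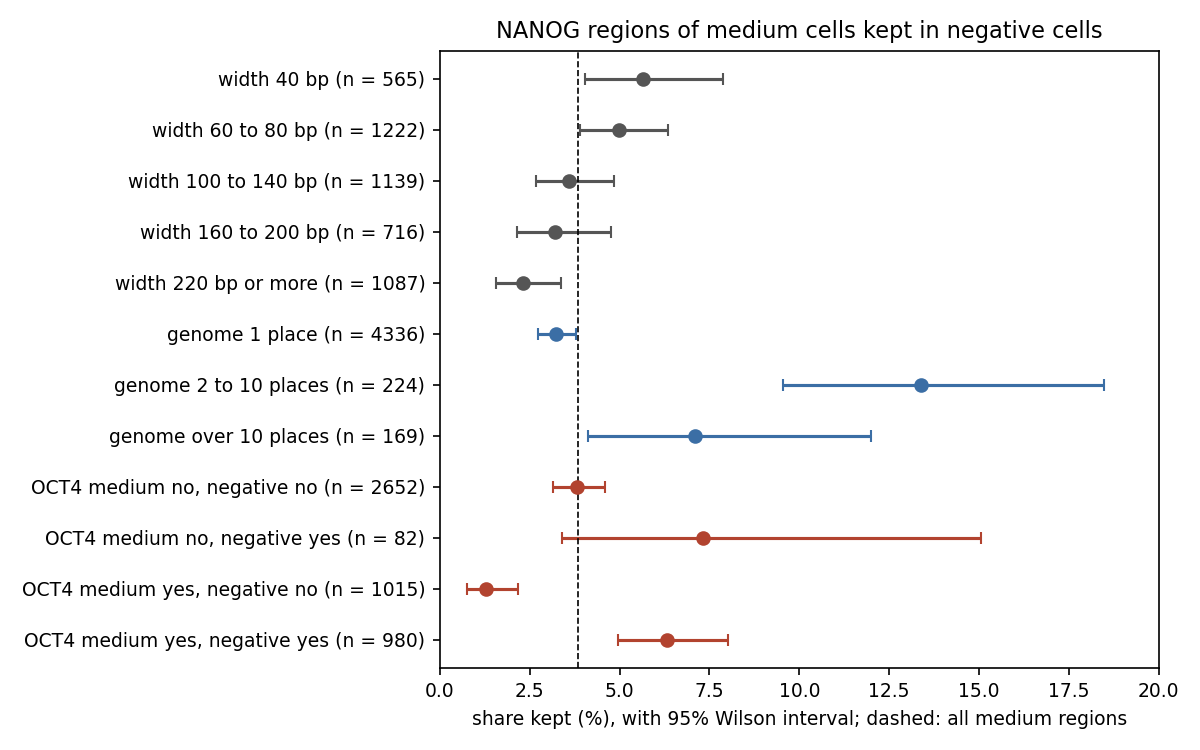
Share of the NANOG regions of Esrrb-GFP medium cells that were kept in negative cells (x axis, %, with 95% Wilson intervals) by width, by the number of places in mm9 that hold the central 31 bases, and by the OCT4 listing in medium and negative cells. The share falls from 5.66% at 40 bp to 2.30% at 220 bp or more, is 13.4% at 2 to 10 places, and is 1.28% where OCT4 was lost against 6.33% where OCT4 was kept.

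Most kept regions had been bound in Esrrb-GFP high cells, but fewer than lost regions. NANOG was listed in high cells at 154 of 182 kept regions, 84.6% (78.7 to 89.1), at 4346 of 4547 lost regions, 95.6% (94.9 to 96.1), and at 83 of 104 negative-only regions, 79.8% (71.1 to 86.4). The share kept was 12.2% (8.60 to 17.1) among the 229 medium regions without NANOG in high cells and 3.42% (2.93 to 3.99) among the 4500 with it. The listing in high cells is not independent of that in the other fractions, since the authors set each against the highest signal of the region.

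OCT4 was listed in high cells at 33.5% (27.1 to 40.7) of kept and 43.7% (42.3 to 45.1) of lost NANOG regions. The difference of -10.2 points (-16.8 to -2.90) was opposite in sign to that in negative cells. OCT4 was listed in medium cells at similar shares of kept and lost NANOG regions, 41.2% (34.3 to 48.5) and 42.2% (40.8 to 43.7), a difference of -1.02 points (-8.06 to 6.38). In negative cells it was listed at 68 of 182 kept regions, 37.4% (30.7 to 44.6), and at 994 of 4547 lost regions, 21.9% (20.7 to 23.1), a difference of 15.5 points (8.69 to 22.8). Among regions whose central bases occur at 1 place the difference was 8.38 points (1.30 to 16.5). The majority of each class, 54.9% of kept, 51.1% of lost and 74.0% of negative-only regions, had no OCT4 in any fraction.

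**Figure D4:**
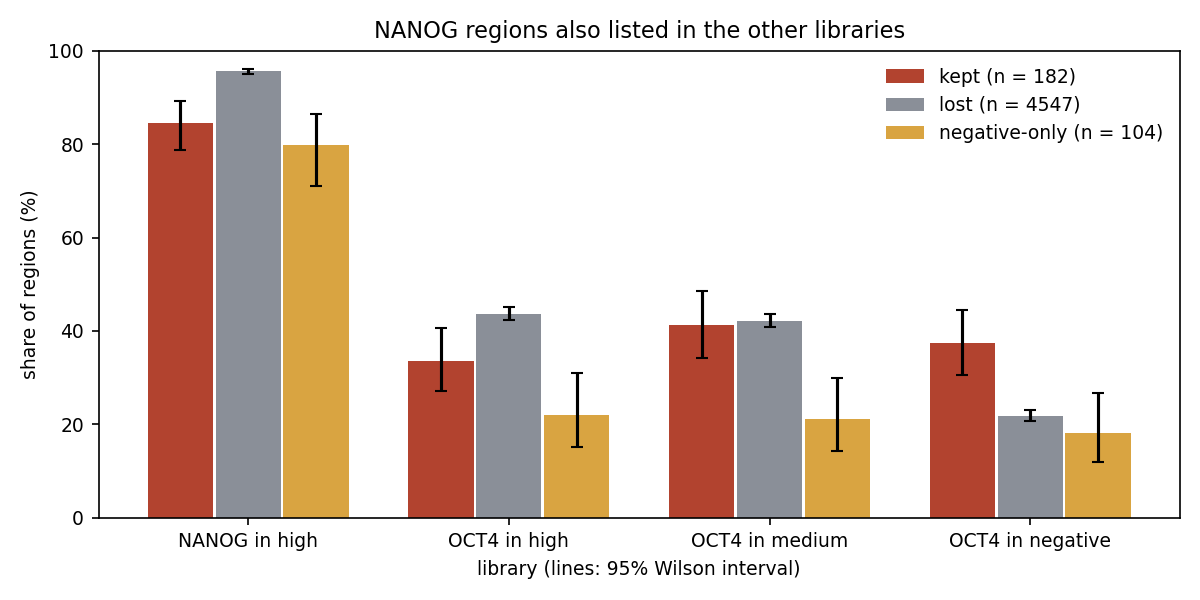
Share of kept (n = 182), lost (n = 4547) and negative-only (n = 104) NANOG regions that were also listed for NANOG in Esrrb-GFP high cells and for OCT4 in high, medium and negative cells, with 95% Wilson intervals. OCT4 in negative cells was listed at 37.4% of kept and 21.9% of lost regions, and NANOG in high cells at more lost than kept regions. OCT4 in high cells was listed at 33.5% of kept and 43.7% of lost regions.

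Where NANOG and OCT4 were both listed in medium cells, the factors parted in negative cells at 918 regions, which lost NANOG and retained OCT4, 47.8% (45.6 to 50.05) of the 1920 regions with OCT4 that lost NANOG. OCT4 was lost with NANOG at 1002, 52.2% (49.95 to 54.4). The OCT4 regions of medium cells without NANOG numbered 12469. Without NANOG refers throughout to the medium list alone. Some of these regions were listed for NANOG in high cells, and 22 in negative cells. At these 12469 regions OCT4 was lost at 43.1% (42.2 to 43.9), which is 9.12 points less (6.72 to 11.5). The difference was between 9.20 and 18.7 points in all 4 quartiles of width, 18.7 (6.88 to 29.0) in regions of 40 to 60 bp, where 69 had lost NANOG, and 9.20 (5.28 to 13.1) in those of 200 bp or more. Where NANOG was kept, OCT4 was lost at 13 of 75 regions, 17.3% (10.4 to 27.4). Seen from OCT4, NANOG was kept at 62 of 980 regions that kept OCT4, 6.33% (4.97 to 8.03), and at 13 of 1015 that lost it, 1.28% (0.750 to 2.18), and the difference of 5.05 points (3.42 to 6.83) was 3.03 (1.57 to 4.66) among regions at 1 place. OCT4 appeared in negative cells at 2.89% of the 2627 lost NANOG regions that lacked it in medium cells.

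Motifs were searched on both strands within 100 bp of region centres: the octamer ATGCAAAT bound by OCT4, the Oct-Sox element with up to 2 mismatches, the ESRRB motif TCAAGGTCA with up to 1, the KLF motif GGGNGTGG, the homeodomain site TAATGG and the SOX site CATTGTT. The octamer is part of the Oct-Sox element. Over all 23767 regions the shares with a match were 7.87%, 3.53%, 11.2%, 11.9%, 9.56% and 6.28%, in the same order. Lost regions held an ESRRB match in 17.5% (16.5 to 18.7), a homeodomain site in 12.8% (11.8 to 13.8) and a SOX site in 9.13% (8.32 to 10.0), against 9.30%, 7.499% and 4.68% of the OCT4 regions of medium cells without NANOG. They held the octamer in 5.12% (4.52 to 5.80), against 9.69% there. The Oct-Sox element was in 1.98% (1.61 to 2.43) of lost regions against 4.68%, and the KLF match in 11.2% (10.3 to 12.2) against 12.8%. In windows 10 kb downstream of lost regions the ESRRB match was found in 6.97%, the homeodomain site in 8.97%, the SOX site in 3.28% and the octamer in 1.30%. The Oct-Sox element was in 0.154% and the KLF match in 5.89% of these windows.

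No difference in these motifs between kept and lost regions was resolved at the mismatch limits above. The ESRRB match was in 16.5% (11.8 to 22.6) of kept regions, a difference from lost regions of -1.04 points (-5.87 to 5.12), and the KLF match in 15.4% (10.9 to 21.3) against 11.2% of lost regions, 4.17 points (-0.451 to 10.2). The other 4 differences ranged from -2.87 points (-6.55 to 2.42, homeodomain) to 1.32 points (-0.515 to 5.04, Oct-Sox), and all 6 intervals include 0. The homeodomain site was in 9.89% of kept regions and in 9.34% of the windows 10 kb downstream of them. For ESRRB, KLF and SOX the windows downstream had 4.40%, 2.75% and 3.85%, with SOX in 7.69% of kept regions. The octamer and Oct-Sox were in 3.85% and 3.30% of kept regions and in none of these windows. With 1 more mismatch allowed, matches were less frequent in kept than in lost regions for SOX, by -14.1 points (-21.4 to -6.87), ESRRB, by -12.1 points (-19.3 to -4.69), and the octamer, by -9.67 points (-15.5 to -2.82). Median GC content was 49.3% in kept and 46.8% in lost regions, and its part in these differences was not tested. Negative-only regions held the homeodomain site in 4.81% (2.07 to 10.8) and the SOX site in 3.85% (1.51 to 9.47), with 10.6% and 3.85% in the windows downstream. They held an ESRRB match in 14.4% (8.94 to 22.4) and a KLF match in 9.62% (5.31 to 16.8), with 8.65% and 7.69% downstream. The octamer was in 3 and the Oct-Sox element in 1 of the 104 negative-only regions, and neither was found in the windows downstream.

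Among lost NANOG regions, some of the motifs differed with the fate of OCT4. Where OCT4 was lost as well, 20.96% (18.6 to 23.6) held an ESRRB match, against 13.6% (11.5 to 16.0) where OCT4 was kept, a difference of -7.34 points for OCT4 kept minus lost (-10.7 to -3.96). The octamer was more frequent where OCT4 was kept, 9.80% against 6.69%, 3.12 points (0.658 to 5.63), and so was the Oct-Sox element, 5.12% against 2.40%, 2.72 points (1.03 to 4.52). The homeodomain site was less frequent there, 9.48% against 12.6%, -3.10 points (-5.89 to -0.283). No difference was resolved for KLF, 0.234 points (-2.69 to 3.19), or SOX, -1.72 points (-4.11 to 0.691). The lost regions without OCT4 in any fraction held an Oct-Sox match in 0.258% and an ESRRB match in 17.8% (16.3 to 19.4).

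**Figure D5:**
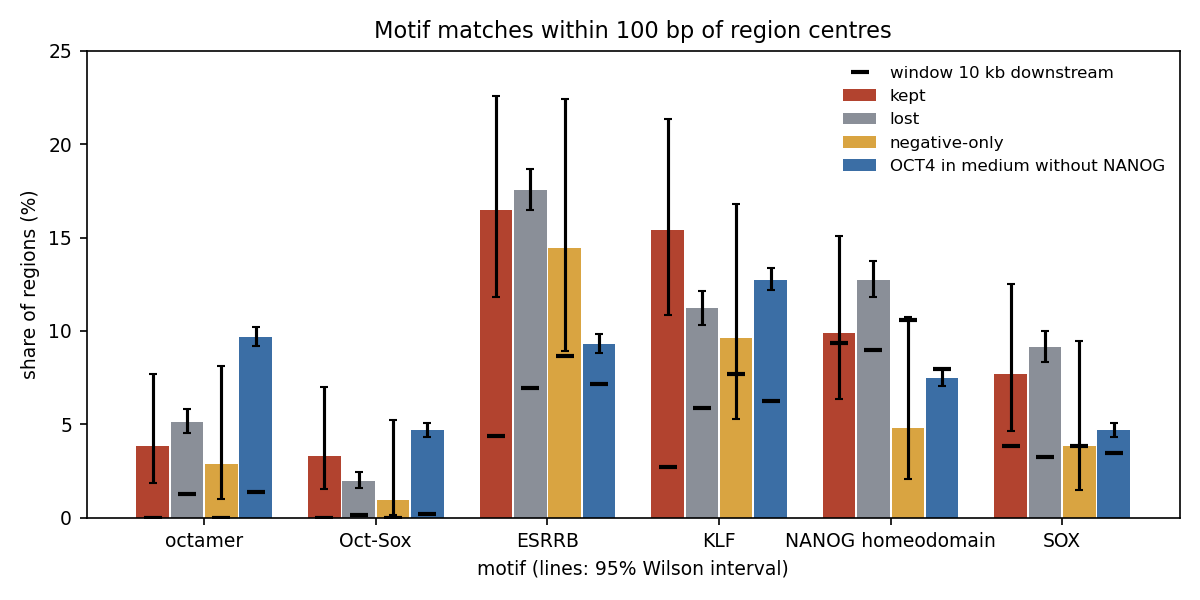
Share of kept, lost and negative-only NANOG regions, and of OCT4 regions of Esrrb-GFP medium cells without NANOG, with a motif match within 100 bp of the centre (bars, with 95% Wilson intervals) and in a window 10 kb downstream (black ticks). ESRRB matches are in 16.5% of kept, 17.5% of lost and 9.30% of OCT4 regions without NANOG, whereas the octamer is most frequent in the last group (9.69%).

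With 10 kb as the largest gap, 810 regions of medium cells lay in 377 groups of 2 or more, and 38 of them were kept, 4.69%, against 144 of 3919 regions without a neighbour, 3.67%. In 348 of the groups every region was lost, in 6 every region was kept, and 23 held both kept and lost regions. The NANOG regions of negative cells formed 12 groups of 2 or more, the largest of 3 regions.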

How the data were processed

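ChIP-Seq for NANOG and OCT4 was performed on Esrrb-GFP high, medium and negative cells (6 libraries, grouped by antibody and sorted fraction). According to the methods and submitters' processing notes, the authors aligned the reads to mm9 (Bowtie, GeneProf), used SISSRs for peak calling and joined peaks that overlapped between datasets. A region was taken out of a population whose signal, scaled for depth, was under 50% of the region's maximum. The deposited lists hold intervals only, in multiples of 20 bp, without scores.

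Members and gene lists were chosen with earlier results of these data known. Intervals were matched exactly. Genes and start sites came from GENCODE for mm9 (37310 genes), with 20 kb to the gene body. Genome places were exact matches of the central 31 bases on both strands. Sequences came from NCBIM37. Named genes are list genes near a NANOG region of negative cells or with at least 4 of medium cells, genes featured in the study, the 10 protein-coding genes with most medium regions, those within 1 kb of a NANOG region of negative cells, and those closest to the 5 widest kept (6 with ties) and negative-only regions. Values of further list genes illustrate their lists. Of the genes listed, 135 were annotated.

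Shares have 95% Wilson intervals. No test between fractions was possible with 1 library each. Python 3.11.15, numpy 2.4.6, scipy 1.17.1, pysam 0.24.0 and matplotlib 3.10.9 were used, and 23 of 23 known answers were recovered from simulated data. Alternatives for joining, width, chromosomes, copies, motif windows and distances were computed. Some sequences are not reported here.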

Additional observations from a re-analysis of the deposited data

How the results depend on the processing

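No paired analysis was possible because there was a single library for every factor and fraction. Of 79 values recomputed under alternatives, 62 stayed within the interval of the reported value, 17 did not, and none of the differences whose interval excluded 0 changed sign. The kept share of NANOG medium regions, 3.85%, was 2.79% in the wider part of the list (from its median width up) and 3.23% among regions whose central bases occur at 1 place. The difference in OCT4 of negative cells between kept and lost regions, 15.5 points, was 23.6 and 8.38 points in these settings. With 1 more mismatch the kept minus lost difference was -9.67 points for the octamer, -12.1 for ESRRB, -14.1 for SOX and -0.930 for Oct-Sox, and with 50 bp either side it was -1.47 for Oct-Sox. The kept share of regions with a neighbour was 3.03% for regions at 1 place. The causes of these shifts were not tested. Leaving out the stretch on chromosome 8, and the settings at 1 place for motifs, start sites and neighbours, were chosen after seeing the data. The lists hold no signal and depth is unknown, so NANOG binding below the threshold in negative cells could not be measured from them. The paper's average profiles, scaled for library size, showed reduced NANOG signal in negative cells, also at the 286 regions still called there.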
